A study of Mus musculus with 27 samples.

Results

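The protocadherins are a family of cadherin-like adhesion proteins, and the protein-coding genes whose GENCODE mouse symbol starts with Pcdh were followed through polyadenylated RNA of 3 subcellular fractions in 3 mouse cell types. Membership was set by gene name alone, without a measured value, but the family was chosen with earlier results of these data known. The count table held 36 such genes among its 37332. Of these, 12 were non-clustered genes, 22 were single genes of the Pcdhb cluster, and 2 were entries that each span a whole cluster. The entry for the Pcdha cluster (ENSMUSG00000007440, mm10, chromosome 18, 36930285 to 37187657) covered the starts of 14 of the 14 annotated Pcdha genes. This count includes Pcdha1, which starts at 36930184, just before the entry. The entry for the Pcdhg cluster (ENSMUSG00000023036, mm10, chromosome 18, 37674335 to 37841873) covered the starts of 20 of the 22 annotated Pcdhg genes. Likewise, this includes Pcdhga3, which starts at 37674307, just before the entry. The single Pcdha and Pcdhg genes have values in the table of TPM values (transcript abundance scaled for length and library size), which lists 70 Pcdh genes, 34 of them there alone. Of the 70, Pcdhgb8 is annotated as a polymorphic pseudogene and the others as protein-coding.

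The 9 groups were the chromatin-associated, soluble nucleoplasmic and cytoplasmic RNA of E14 mouse embryonic stem cells (mESC), of a neural progenitor line (mNPC) and of primary cortical neurons (mCtx). Stem cells were grown on gelatin with leukaemia inhibitory factor, progenitors in DMEM/F12 with vitamin A-free B27 and daily EGF and FGF at 10 ng/ml, and neurons were kept for 5 days in culture on poly-L-lysine. No group carried a mutation or a drug. Each group had 3 libraries, labelled biological replicates, of polyadenylated RNA over 200 nt. The stem cells and the progenitors are a single line each, the labels do not give the animals behind the neurons, and p-values therefore measure the spread between these cultures.

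Library totals ran from 10622897 to 24537526 counts. Summed pluripotency markers were 5554 to 6524 CPM (counts scaled to library size) in stem-cell cytoplasm, against at most 16.3 CPM in the cytoplasm of the other cell types. Summed cortical neuron markers were 720 to 860 CPM in mNPC cytoplasm and 8901 to 9666 CPM in mCtx cytoplasm. Most of the mNPC sum was Map2, with a mean of 720 CPM, while Tubb3 had 50.2 CPM and Stmn2 0.144 CPM there. Neural progenitor markers were 7563 to 8020 CPM in mNPC cytoplasm and 1438 to 1894 CPM in mCtx cytoplasm, and inhibitory neuron markers were 439 to 471 CPM in mCtx cytoplasm. The part of progenitors and inhibitory neurons in the protocadherin values was not tested, and in bulk libraries fewer cells of a type and less RNA per cell cannot be told apart.

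Protocadherins carry cadherin repeats outside the cell and bind molecules of the same kind on a neighbouring cell. The clustered genes lie in 3 tandem arrays. In the Pcdha and Pcdhg arrays each variable exon has its own promoter and is spliced to constant exons shared by the array, whereas each Pcdhb gene is a single exon of its own. In neurons, promoter choice differs from cell to cell and gives neighbouring neurons different surface identities, while the C-type genes at the ends of the Pcdha and Pcdhg arrays are expressed more uniformly. The non-clustered genes stand alone in the genome and have conserved cytoplasmic tails with roles in cell sorting, axon growth and synapse formation.

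Promoters of 9 non-clustered genes were matched by symbol in the RefSeq table for GRCm38.p6, which gives 300 bases, most of them before the start site. Shown here are 4 of them: Pcdh8 and Pcdh19, which were called higher in neurons than in progenitors in cytoplasm and in chromatin, Pcdh10, with the highest non-clustered counts in progenitor nucleoplasm, and Pcdh15, the non-clustered gene called lower in neuronal than in progenitor cytoplasm. Capitals mark matches on either strand to the TATA string TATAAA, the CCAAT box, the GC-box string GGGCGG, the E-box string CAGCTG or the further E-box string CACGTG. On the opposite strand the CCAAT box appears as ATTGG and the GC box as CCGCCC.
Pcdh8 (chr14:79771263-79771562, minus strand): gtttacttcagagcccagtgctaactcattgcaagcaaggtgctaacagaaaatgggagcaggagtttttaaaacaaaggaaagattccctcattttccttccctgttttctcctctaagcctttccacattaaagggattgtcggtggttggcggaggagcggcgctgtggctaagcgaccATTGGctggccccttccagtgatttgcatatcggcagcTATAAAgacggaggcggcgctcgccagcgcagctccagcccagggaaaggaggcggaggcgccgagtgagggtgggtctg
Pcdh19 (chrX:133688944-133689243, minus strand): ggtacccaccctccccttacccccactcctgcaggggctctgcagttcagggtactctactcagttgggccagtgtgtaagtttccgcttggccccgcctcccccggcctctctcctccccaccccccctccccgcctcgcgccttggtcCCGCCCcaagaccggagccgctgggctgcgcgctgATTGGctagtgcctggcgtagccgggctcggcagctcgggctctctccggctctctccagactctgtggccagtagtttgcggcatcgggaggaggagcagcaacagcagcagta
Pcdh10 (chr3:45378148-45378447, plus strand): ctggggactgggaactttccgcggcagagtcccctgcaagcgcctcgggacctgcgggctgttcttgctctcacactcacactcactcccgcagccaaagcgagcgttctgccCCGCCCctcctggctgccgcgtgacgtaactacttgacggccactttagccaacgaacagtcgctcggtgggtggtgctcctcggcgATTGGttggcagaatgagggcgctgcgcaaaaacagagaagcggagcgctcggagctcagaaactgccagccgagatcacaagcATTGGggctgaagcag
Pcdh15 (chr10:73821617-73821916, plus strand): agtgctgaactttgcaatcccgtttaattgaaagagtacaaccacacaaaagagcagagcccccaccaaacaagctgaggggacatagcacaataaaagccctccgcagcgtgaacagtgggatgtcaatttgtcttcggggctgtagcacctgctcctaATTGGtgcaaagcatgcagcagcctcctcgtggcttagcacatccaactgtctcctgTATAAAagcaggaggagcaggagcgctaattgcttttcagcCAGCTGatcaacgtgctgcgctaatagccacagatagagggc
Pcdh8 and Pcdh15 held TATAAA 30 and 33 bases before the start site, a string found in 13.6% of the 32851 mouse promoters searched. The Pcdh15 window lies inside the gene, whose counted region begins at position 73099342, so its start site is an internal one. CCAAT was found in each of the 4 promoters, against 37.4% of promoters, and GGGCGG was found in Pcdh19 and Pcdh10, against 35.7%. CAGCTG, at 8 bases after the start site in Pcdh15, was found in 16.3% of promoters, and CACGTG, in 7.15% of promoters, was in none of the 4. The promoters of Pcdh10, Pcdh19, Pcdh8 and Pcdh15 held 24, 18, 14 and 8 CpG dinucleotides, against a median of 7. Pcdh7 and Pcdh20, not shown, were also called higher in neurons than in progenitors in cytoplasm and in chromatin. The Pcdh7 promoter held none of these strings and 11 CpG, and the Pcdh20 promoter held CCAAT and 4 CpG. A match describes the sequence only.

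A gene was called when edgeR's quasi-likelihood test gave a Benjamini-Hochberg adjusted p below 0.05 over the 18226 genes tested together with a log2 fold change of at least 1 in size. Of the 36 members, 34 passed the filter on low counts. Pcdh12 and Pcdhb1 did not, and were at or below 0.490 and 0.149 CPM in each of the 27 libraries.

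Protocadherin RNA was scarce in stem cells and abundant in both neural cell types. In cytoplasm, 32 of the 34 tested members were called higher in mNPC than in mESC and none lower, where 59.4% of all tested genes were called, 29.8% higher and 29.6% lower. The corresponding count between mCtx and mESC cytoplasm was 34 higher and none lower, where 67.9% were called and 35.7% higher. In chromatin, 32 members were called higher in mNPC than in mESC (57.2% of genes called, 25.3% higher) and 34 were called higher in mCtx than in mESC (61.5% called, 29.3% higher). Most members passed the filter only through the neural groups, so these counts describe levels only. In each cytoplasm comparison with mESC 28 of the 36 members had at most 3 counts in a group, and for them no fitted fold change is given.

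Pcdh1 and the Pcdhg entry stood apart in stem cells. Pcdh1, a non-clustered gene also expressed in epithelia, had 2.43, 4.74 and 5.18 CPM in mESC cytoplasm, 6.28, 5.51 and 4.84 CPM in mNPC cytoplasm and 68.3, 79.0 and 94.6 CPM in mCtx cytoplasm. Its mESC and mNPC values overlapped, and the difference was not called (mNPC over mESC, log2 fold change 0.42 ± 0.22, SE, adjusted p = 0.093). The Pcdhg entry had 47.8, 75.8 and 62.0 CPM in mESC cytoplasm, 906, 680 and 844 CPM in mNPC cytoplasm and 680, 774 and 830 CPM in mCtx cytoplasm, with all neural libraries above all stem-cell libraries. It was higher in mNPC than in mESC by 3.71 ± 0.17 on the log2 scale.

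The other members left few counts in stem cells. Pcdh10, which takes part in axon growth and synapse elimination, had 6728 counts over the 3 mNPC cytoplasm libraries against 2 counts over the 3 mESC cytoplasm libraries, and 10023 counts in mCtx cytoplasm. Pcdh11x, an X-linked gene, had 390 counts in mNPC cytoplasm and 0 counts in mESC cytoplasm, so it was at least 115-fold higher in mNPC against a floor of 3 counts over the group. Pcdh20 was the neural exception. It had 5 counts in mNPC cytoplasm against 1 count in mESC cytoplasm, a ratio of 4.42 whose 95% counting interval ran from 0.495 to 209, and 503 counts in mCtx cytoplasm.

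**Figure D1:**
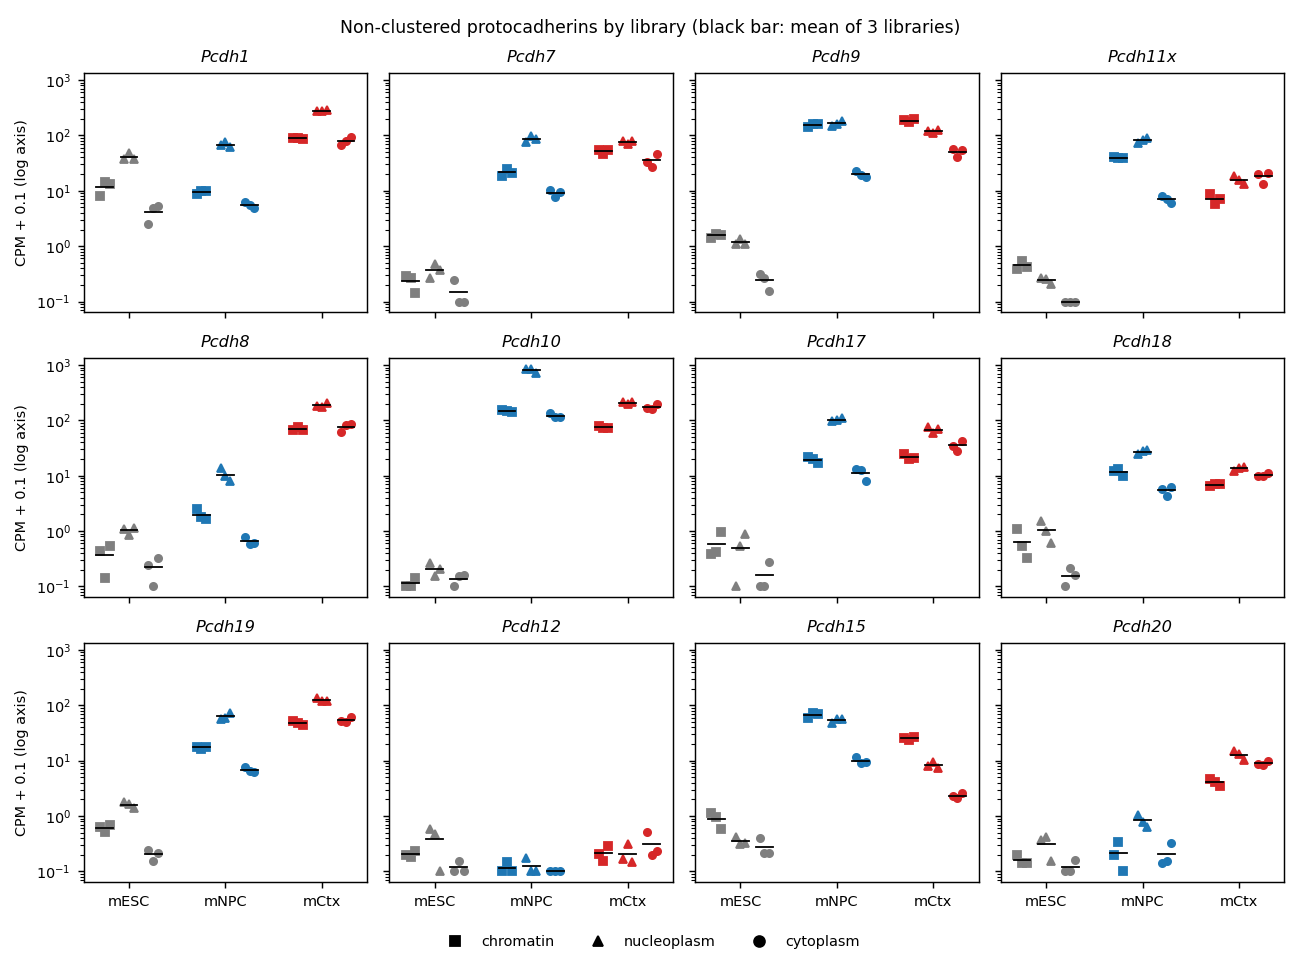
Level of each non-clustered protocadherin in every library, as CPM + 0.1 on a log axis, by cell type (x axis, colours) and fraction (symbols), with black bars at the mean of 3 libraries. Pcdh8, Pcdh20 and Pcdh1 lie far higher in mCtx than in mNPC, Pcdh15 is lower in mCtx than in mNPC in every fraction, and Pcdh12 stays at or below 0.490 CPM.

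Between progenitors and neurons, cytoplasmic protocadherin RNA was mostly higher in neurons. Of the 34 tested members, 27 were called higher in mCtx than in mNPC cytoplasm and 1 lower, where 44.4% of all tested genes were called, 24.4% higher and 20% lower. Of the 11 tested non-clustered genes, 8 were called higher and 1, Pcdh15, lower. The largest of these differences were in Pcdh8, Pcdh20 and Pcdh1. Pcdh8, known as arcadlin in rat and induced by neuronal activity there, had 61.2, 82.3 and 85.0 CPM in mCtx cytoplasm, against 0.689, 0.496 and 0.522 CPM in mNPC cytoplasm. The groups did not overlap, and the log2 fold change was 7.02 ± 0.31 (adjusted p = 7.2e-17). Pcdh20 had 8.60, 8.10 and 9.85 CPM in mCtx cytoplasm, against 0.0430, 0.0551 and 0.224 CPM in mNPC cytoplasm, a log2 fold change of 6.47 ± 0.48 that rests on 5 progenitor counts. Pcdh1 rose by 3.85 ± 0.21 on the log2 scale.

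Pcdh19, an X-linked gene mutated in a human epilepsy of girls, rose in neurons as well. It had 52.7, 50.8 and 60.3 CPM in mCtx cytoplasm, against 7.49, 6.33 and 6.19 CPM in mNPC cytoplasm (log2 fold change 3.03 ± 0.14). Smaller differences were called for Pcdh7 (1.95 ± 0.21), Pcdh17 (1.62 ± 0.27), Pcdh11x (1.37 ± 0.19) and Pcdh9 (1.34 ± 0.14). Pcdh18 and Pcdh10 were above their progenitor libraries in each neuron library in cytoplasm, but their log2 fold changes of 0.95 ± 0.26 and 0.54 ± 0.13 were below the size required.

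Pcdh15, which in the inner ear is a part of the tip link of hair cells, went the other way. It had 2.18, 2.01 and 2.46 CPM in mCtx cytoplasm, against 11.4, 8.87 and 9.32 CPM in mNPC cytoplasm, and fell by 2.15 ± 0.19 on the log2 scale. Its chromatin values, 25.1, 23.4 and 27.2 CPM in mCtx and 57.9, 73.7 and 70.1 CPM in mNPC, also did not overlap (log2 fold change -1.41 ± 0.16). Summed markers of the oligodendrocyte lineage, 5 genes, were 33.6 to 38.7 CPM in mCtx chromatin and 223 to 289 CPM in mNPC chromatin, and Mog was at 0 in mNPC. Their part in the Pcdh15 difference was not tested.

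In chromatin the members were called in both directions between the neural cell types, at numbers near the share over all tested genes. Of the 34 tested members, 10 were called higher and 8 lower in mCtx than in mNPC, where 44.8% of all tested genes were called, 23.5% higher and 21.4% lower. Among the non-clustered genes, Pcdh8 (5.20 ± 0.26), Pcdh20 (4.95 ± 0.47), Pcdh1 (3.26 ± 0.20), Pcdh19 (1.47 ± 0.13) and Pcdh7 (1.27 ± 0.20) were called higher, all 5 of them also called higher in cytoplasm. Pcdh11x was called in opposite directions in the 2 fractions. It had 8.70, 5.57 and 7.16 CPM in mCtx chromatin, against 40.7, 39.7 and 38.5 CPM in mNPC chromatin (log2 fold change -2.47 ± 0.19). In cytoplasm it had 20.3, 13.2 and 20.7 CPM in mCtx, against 7.96, 6.99 and 5.81 CPM in mNPC. Pcdh10 had 78.5, 73.5 and 72.4 CPM in mCtx chromatin, against 153, 147 and 141 CPM in mNPC chromatin, a difference of -0.97 ± 0.13 that fell short of the required size.

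The Pcdhb cluster was close to silent in stem cells. Summed over its 22 genes it gave 12 counts in the 3 mESC cytoplasm libraries, 66 in chromatin and 71 in nucleoplasm, and 7 of the 22 genes had any count in cytoplasm. Pcdhb9, Pcdhb10 and Pcdhb13 had no count in any of the 9 stem-cell libraries. The summed level in cytoplasm was 0.235 ± 0.141 CPM in mESC, 47.6 ± 9.71 CPM in mNPC and 174 ± 13.7 CPM in mCtx (SD, n = 3 each). In nucleoplasm the order of the neural cell types was the other way round, with 1.29 ± 0.399 CPM in mESC, 595 ± 33.9 CPM in mNPC and 304 ± 22.8 CPM in mCtx, and in chromatin the sums were 0.989 ± 0.369, 179 ± 8.17 and 124 ± 7.05 CPM in the same order of cell types.

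In cytoplasm, 18 of the 21 tested Pcdhb genes were called higher in mCtx than in mNPC and none lower, with a median log2 fold change of 2.23 over the 21 and of 0.00 over all tested genes. Pcdhb13 had 3.21, 3.67 and 3.33 CPM in mCtx cytoplasm, against 0.129, 0.0551 and 0.149 CPM in mNPC cytoplasm (log2 fold change 4.87 ± 0.41). Pcdhb7 had 12.4, 11.7 and 12.4 CPM in mCtx cytoplasm, against 0.646, 0.441 and 0.447 CPM in mNPC cytoplasm (4.52 ± 0.27). The 3 Pcdhb genes with the highest mean counts, Pcdhb20, Pcdhb17 and Pcdhb19, rose by 1.63 ± 0.19, 2.57 ± 0.22 and 1.28 ± 0.18. Pcdhb18, Pcdhb21 and Pcdhb22, near the end of the cluster, were not called, with log2 fold changes of 0.70 ± 0.26, 0.37 ± 0.26 and 0.77 ± 0.18.

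In chromatin the Pcdhb genes split. Pcdhb7 (2.11 ± 0.23), Pcdhb9 (1.88 ± 0.29), Pcdhb8 (1.38 ± 0.36) and Pcdhb13 (1.09 ± 0.28) were called higher in mCtx than in mNPC. Pcdhb21 (-2.39 ± 0.25), Pcdhb2 (-2.25 ± 0.35), Pcdhb18 (-1.70 ± 0.26), Pcdhb19 (-1.62 ± 0.17), Pcdhb16 (-1.52 ± 0.22) and Pcdhb22 (-1.30 ± 0.18) were called lower. Pcdhb21 had 2.97, 2.76 and 3.65 CPM in mCtx chromatin, against 15.5, 15.5 and 18.5 CPM in mNPC chromatin. Pcdhb9 had 6.66, 6.54 and 6.92 CPM in mCtx chromatin, against 2.31, 0.990 and 2.21 CPM in mNPC chromatin.

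The number of Pcdhb genes called in chromatin, 4 higher and 6 lower of 21, was near the share over all tested genes, 23.5% higher and 21.4% lower. By position, of the 10 tested genes among the first 11 along the cluster, 3 were called higher and 1 lower, and of the last 11, 1 was called higher and 5 lower. Across the 21 tested Pcdhb genes, the rank of the position along the cluster and the log2 fold change of mCtx over mNPC had a Spearman rho of -0.43 in chromatin and of -0.57 in cytoplasm. The genes share libraries and a locus, so these values are a description. Per length, Pcdhb22 had the highest level of the cluster in each mNPC fraction, with a mean of 21.04 TPM in chromatin, 19.1 TPM in nucleoplasm and 2.94 TPM in cytoplasm. In mCtx the highest were Pcdhb20 in chromatin and nucleoplasm, at 12.7 and 13.6 TPM, and Pcdhb17 in cytoplasm, at 6.11 TPM.

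**Figure D2:**
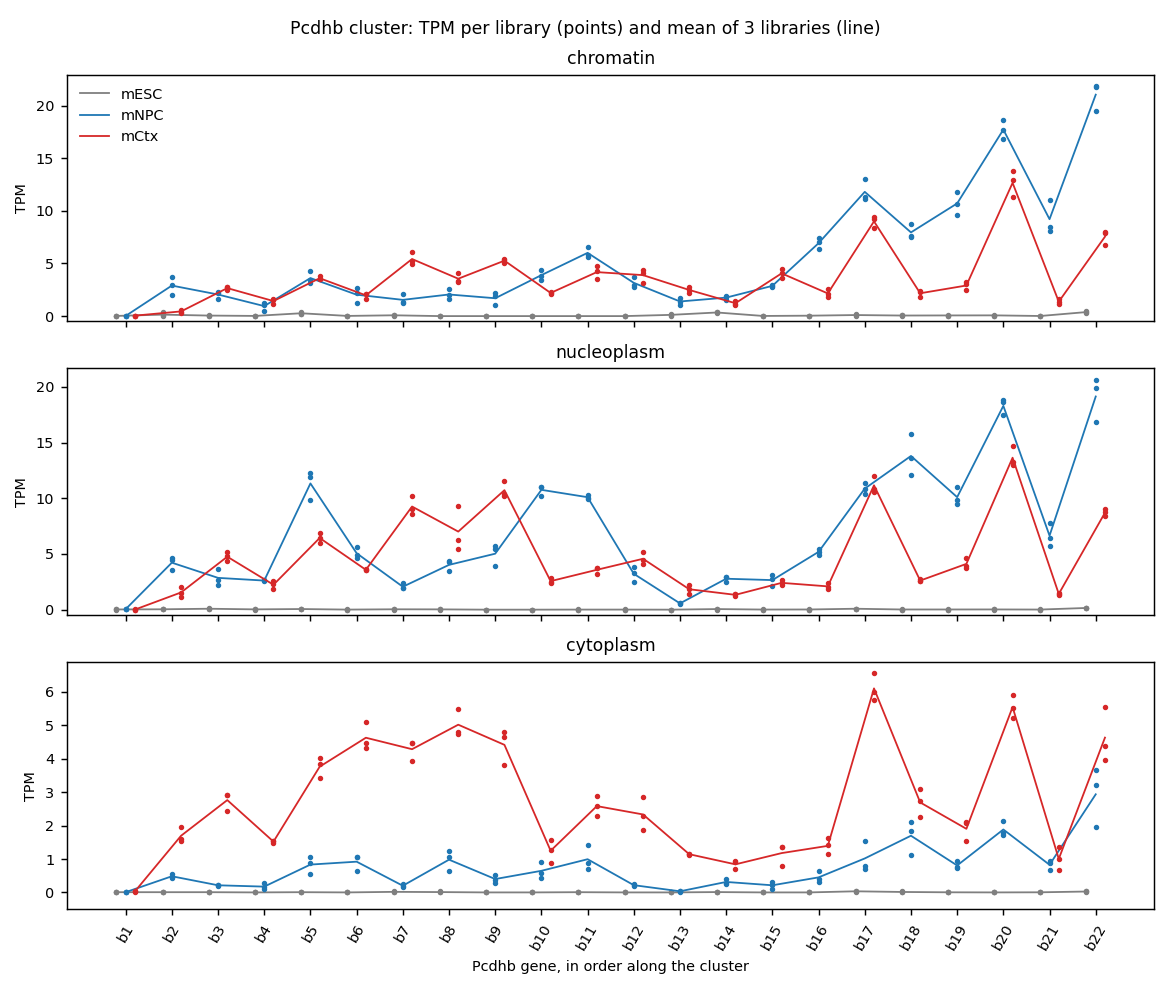
TPM of each Pcdhb gene in order along the cluster (x axis), with points for the libraries and lines through the mean of 3, in chromatin, nucleoplasm and cytoplasm for mESC, mNPC and mCtx; the vertical scales differ. The mESC line lies near 0 throughout, mNPC reaches 21.04 TPM at Pcdhb22 in chromatin, and mCtx lies above mNPC in cytoplasm at nearly every gene.

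The Pcdha cluster was low in progenitors and high in neurons. Its entry had 174, 168 and 163 CPM in mCtx chromatin, against 13.6, 12.4 and 8.91 CPM in mNPC chromatin, a log2 fold change of 3.85 ± 0.21. In cytoplasm it had 358, 339 and 389 CPM in mCtx, against 9.13, 8.32 and 6.41 CPM in mNPC, a log2 fold change of 5.50 ± 0.22 (adjusted p = 1.7e-17). In stem-cell cytoplasm it had 13 counts over 3 libraries.

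Single Pcdha genes have TPM values only. TPM was tested with limma on log2(TPM + 1) over 24419 genes, a scale that understates the change of low genes, and reads from the shared constant exons cannot be told apart by gene. All 10 tested alternate genes of the cluster, those other than the C-type genes, were called higher in mCtx than in mNPC in cytoplasm, where 26.2% of genes were called, and in chromatin, where 35.2% were called. Of the 11 alternate genes, 10 had a mean of at least 1 TPM in mCtx cytoplasm and 0 in mNPC cytoplasm. In chromatin the numbers were 11 and 0. Most of these genes thus passed the filter of 1 TPM only through neurons, and the counts of calls describe levels only. The outermost gene, Pcdha1, had 1.39, 1.77 and 1.83 TPM in mCtx cytoplasm and was listed at 0 in each of the 9 mNPC libraries. The innermost, Pcdha12, had 4.93, 4.59 and 5.27 TPM in mCtx cytoplasm, against 0.13, 0.04 and 0.05 TPM in mNPC cytoplasm. The 3 alternate genes with the highest mean TPM were Pcdha4, Pcdha3 and Pcdha5, at 10.2, 7.84 and 7.6 TPM, at 8.43, 5.88 and 7.20 TPM and at 8.84, 6.80 and 7.88 TPM in mCtx cytoplasm. In mNPC cytoplasm these 3 genes reached at most 0.240 TPM.

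The C-type genes of the array differed from each other. Pcdhac2 had 22.3, 20.2 and 24.4 TPM in mCtx cytoplasm, against 1.38, 1.25 and 0.910 TPM in mNPC cytoplasm (log2(TPM + 1) difference 3.42 ± 0.16). It made up 26.3% ± 0.563 of the summed Pcdha TPM in mCtx cytoplasm and 63.6% ± 4.51 in mNPC cytoplasm (SD, n = 3 each), where the sum was 85.0 and 1.88 TPM. Pcdhac1 had 1.49, 1.33 and 1.42 TPM in mCtx chromatin, against 0.3, 0.14 and 0.2 TPM in mCtx cytoplasm, without overlap, and its difference of 0.99 ± 0.09 on the log2(TPM + 1) scale was just short of the required size. Pcdhac2 was lower in mCtx chromatin (11.8, 9.24 and 9.19 TPM) than in mCtx cytoplasm, with a log2(TPM + 1) difference of -1.08 ± 0.16.

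The Pcdhg entry was not called between the neural cell types in cytoplasm or chromatin. Its log2 fold change of mCtx over mNPC was -0.09 ± 0.15 in cytoplasm (adjusted p = 0.64) and -0.27 ± 0.15 in chromatin (adjusted p = 0.13). In nucleoplasm it had 1481, 1460 and 1589 CPM in mCtx and 5184, 5283 and 4068 CPM in mNPC, without overlap. Nucleoplasm was not compared by a test.

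Pcdhgc3, a C-type gene, dominated the Pcdhg cluster in progenitors. It had 21.9, 18.6 and 18.4 TPM in mCtx chromatin, against 205, 204 and 214 TPM in mNPC chromatin, and fell by 3.34 ± 0.19 on the log2(TPM + 1) scale. In cytoplasm it had 53.0, 53.5 and 63.4 TPM in mCtx, against 192, 132 and 165 TPM in mNPC, and fell by 1.496 ± 0.195. Its share of the summed Pcdhg TPM was 6.41% ± 0.664 in mCtx chromatin and 67.2% ± 5.20 in mNPC chromatin, and 23.5% ± 1.29 in mCtx cytoplasm and 68.5% ± 4.96 in mNPC cytoplasm. The sums themselves were close, at 307 ± 12.8 TPM in mCtx chromatin and 310 ± 23.2 TPM in mNPC chromatin, and 240 ± 17.3 TPM in mCtx cytoplasm and 237 ± 34.5 TPM in mNPC cytoplasm.

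Most alternate Pcdhg genes were called higher in neuronal cytoplasm. Of the 19, Pcdhgb8 included, 13 were called higher in mCtx than in mNPC cytoplasm and none lower, where 26.2% of all genes tested by TPM were called. In chromatin 2 were called higher and none lower, where 35.2% were called. Pcdhgb8 was not called in cytoplasm, with a mean of 0.520 ± 0.0755 TPM in mCtx and of 0.727 ± 0.186 TPM in mNPC (SD, n = 3 each). The outermost, Pcdhga1, had 4.96, 4.21 and 5.96 TPM in mCtx cytoplasm, against 1.38, 0.990 and 1.13 TPM in mNPC cytoplasm (1.47 ± 0.17). The innermost, Pcdhga12, had 6.40, 7.57 and 9.94 TPM in mCtx cytoplasm, against 0.990, 0.350 and 0.510 TPM in mNPC cytoplasm (2.47 ± 0.19). Of the 3 with the highest mean TPM, Pcdhga3 (1.88 ± 0.18) and Pcdhga11 (2.25 ± 0.15) rose, and Pcdhgb6 had a difference of 0.97 ± 0.14, below the required size.

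The identifier that the annotation names Pcdhgc4 is the same as that of the entry spanning the cluster, so its TPM may include transcripts of other Pcdhg genes, and the transcript set behind it is not given in the sources used here. It held 61.9% ± 3.37 of the summed Pcdhg TPM in mCtx chromatin and 6.05% ± 4.79 in mNPC chromatin. In stem cells it held 1.71% ± 0.686 in chromatin and 85.4% ± 3.63 in cytoplasm, at 21.6, 31.1 and 22.9 TPM there. The 19 alternate genes leaned the other way in stem cells, with 12 called higher in chromatin than in cytoplasm and none lower. Genes as a whole leaned this way too. Of the 24419 tested by TPM, 51% were called, 10484 of them higher, with a median of 0.80, against 1.09 for the 19. Pcdhgc5 had at most 5.49 TPM in mCtx and 11.8 TPM in mNPC, its highest levels being in chromatin in both.

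**Figure D3:**
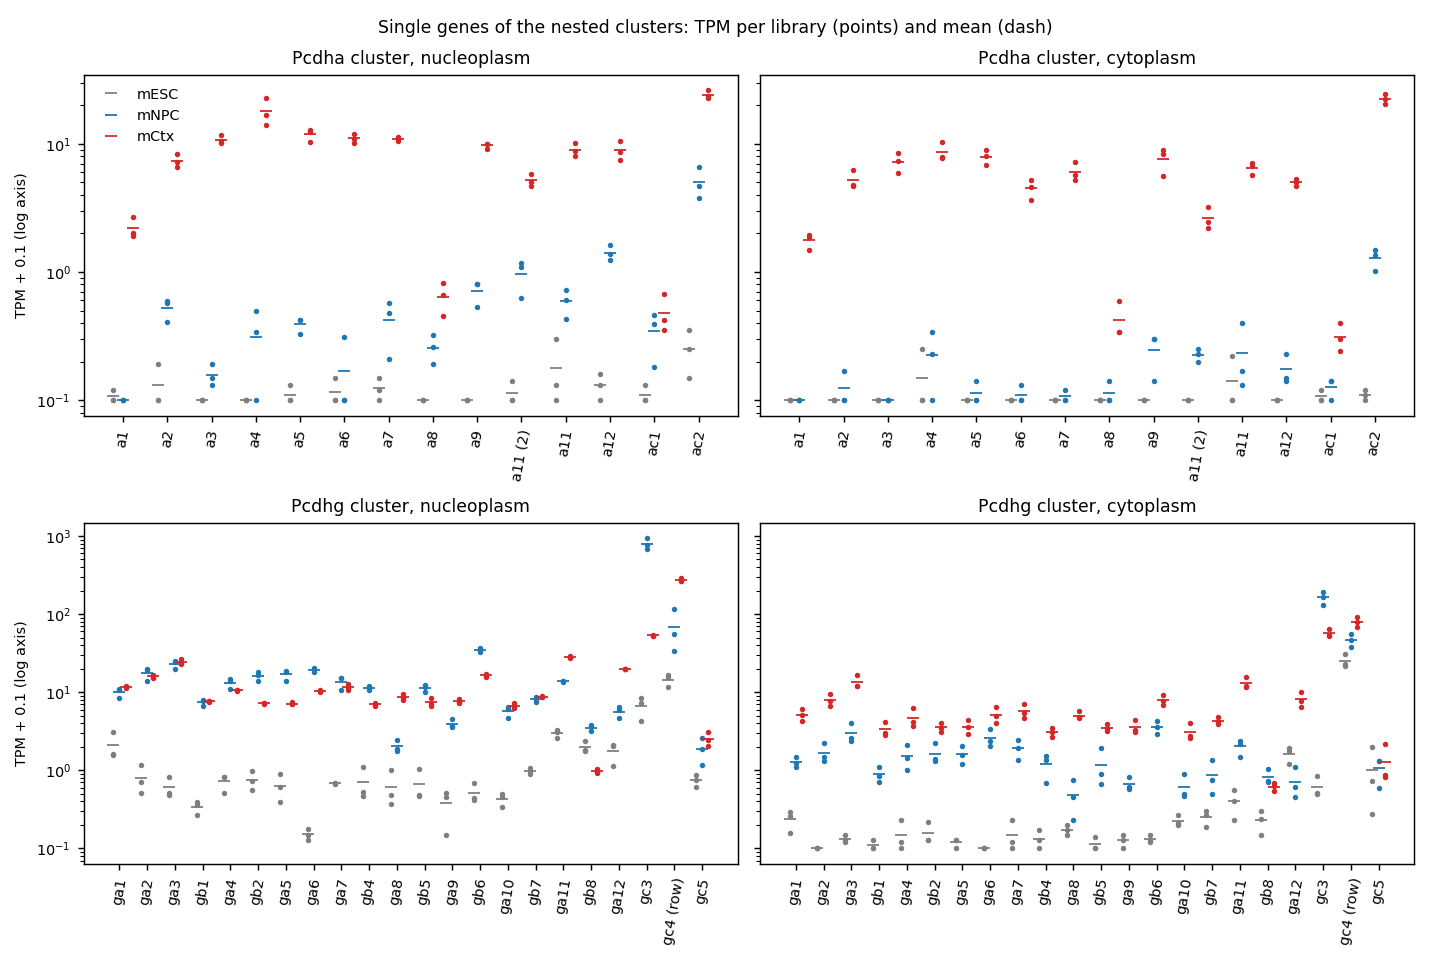
TPM + 0.1 (log axis) of the single Pcdha and Pcdhg genes in cluster order, in nucleoplasm and cytoplasm, with points for libraries and dashes for the mean of 3 in mESC, mNPC and mCtx. The label a11 (2) is the identifier of the entry spanning the Pcdha cluster and gc4 (row) that of the entry spanning the Pcdhg cluster. Most Pcdha genes lie higher in mCtx than in mNPC, with Pcdha8 and Pcdhac1 low in both, whereas Pcdhgc3 lies higher in mNPC than in mCtx.

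Across fractions, protocadherin RNA was relatively enriched in progenitor nucleoplasm. Each library is scaled to its own size, so the values do not show which fraction held most of the RNA of a cell. All 34 tested members were called higher in nucleoplasm than in cytoplasm of mNPC, where 25% of all tested genes were called, 16.4% higher and 8.56% lower. The median log2 fold change was 3.58 over the members tested and -0.04 over all tested genes, and with library totals in place of TMM factors the count was again 34 higher and none lower. By mean CPM, nucleoplasm was the highest of the 3 fractions for 35 of the 36 members in mNPC, and Pcdh15 was highest in chromatin. The Pcdhg entry had 5184, 5283 and 4068 CPM in nucleoplasm, against 906, 680 and 844 CPM in cytoplasm (log2 fold change 2.58 ± 0.16). Pcdh10 had 838, 846 and 730 CPM in nucleoplasm, against 135, 113 and 115 CPM in cytoplasm (2.73 ± 0.14). The largest differences in the Pcdhb cluster were in Pcdhb10 (4.35 ± 0.28) and Pcdhb4 (4.30 ± 0.37), and by TPM all 19 alternate Pcdhg genes were called higher in nucleoplasm, where 19.9% of genes were called.

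In neurons fewer members were called, and the median log2 fold change over the tested members was 0.83; the difference between the cell types in this change was not tested. Of the 34 tested members, 11 were called higher in nucleoplasm than in cytoplasm of mCtx and none lower, where 21.3% of all tested genes were called, 11.7% higher and 9.57% lower. These were 6 of the 11 non-clustered and 5 of the 21 Pcdhb genes tested, with Pcdh15 (1.87 ± 0.19), Pcdh1 (1.80 ± 0.19) and Pcdh8 (1.30 ± 0.20) largest among the non-clustered genes. The Pcdhb genes with the largest differences were Pcdhb20 (1.27 ± 0.18) and Pcdhb9 (1.27 ± 0.25). In stem cells 12 of the 34 tested members were called higher in nucleoplasm, where 36.5% of genes were called, 27.5% higher and 8.95% lower, and Pcdh1 had 38.0, 48.7 and 37.4 CPM in nucleoplasm, against 2.43, 4.74 and 5.18 CPM in cytoplasm (3.31 ± 0.22).

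RNAs for 3 endoplasmic reticulum proteins and mitochondrial RNA were also at higher levels in nucleoplasm than in cytoplasm, in progenitors and in stem cells. In mNPC, Canx, Hspa5 and Sec61a1, a chaperone pair and a translocon subunit of the endoplasmic reticulum chosen after values were seen, were higher in nucleoplasm than in cytoplasm by 2.46 ± 0.13, 3.24 ± 0.20 and 1.67 ± 0.19 on the log2 scale. In mESC the differences of the same genes were larger, at 3.44 ± 0.13, 4.34 ± 0.21 and 2.66 ± 0.19. In mCtx, Hspa5 was higher by 1.83 ± 0.19, and the differences of Canx and Sec61a1, 0.99 ± 0.12 and 0.32 ± 0.18, were not called. Mitochondrial genes took 10.0% ± 1.52 of counts in mNPC nucleoplasm and 0.385% ± 0.104 in mNPC cytoplasm, and 6.58% ± 0.153 in mCtx nucleoplasm and 2.51% ± 0.112 in mCtx cytoplasm. They took 4.20% ± 0.317 in mESC nucleoplasm and 0.0371% ± 0.00584 in mESC cytoplasm. The part of reticulum-bound or mitochondrial RNA in the nucleoplasm result was not tested.

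Other adhesion genes were counted beside the shares of all tested genes called higher, 16.4% in mNPC nucleoplasm against cytoplasm and 11.7% in mCtx nucleoplasm against cytoplasm. Of 14 tested genes of the Celsr, Fat, Dchs, calsyntenin and Dscam families with Cdh23, 14 were called higher in mNPC nucleoplasm than in cytoplasm, with a median of 3.75, and 10 were called higher in mCtx nucleoplasm, with a median of 1.86. Of 26 tested classical cadherins and catenins, 13 and 5 were called higher in the same comparisons, and of 19 cytoplasmic partners and proteases of protocadherins, 3 and 3 higher and 2 and 2 lower, which is near the share over all genes. Marcks and Fyn, the most highly counted partners, had 1128 ± 184 and 446 ± 8.43 CPM in mNPC cytoplasm, and the catenin genes Ctnnb1 and Ctnna1 had 795 ± 164 and 252 ± 50.8 CPM there (SD, n = 3 each). Fat1 and Clstn1, the most highly counted of the first list, were higher in mNPC nucleoplasm by 4.14 ± 0.18 and 3.02 ± 0.16.

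Chromatin and cytoplasm were related differently in the cell types. In mNPC, 25 of the 34 tested members were called higher in chromatin than in cytoplasm and none lower, where 48.9% of all tested genes were called, 27.5% higher and 21.3% lower. They were 18 of 21 Pcdhb and 7 of 11 non-clustered genes. Pcdhb13 (3.97 ± 0.43), Pcdhb12 (3.12 ± 0.32), Pcdh9 (2.97 ± 0.14) and Pcdh15 (2.76 ± 0.17) had the largest differences. Pcdhb12 had 4.02, 4.95 and 4.83 CPM in mNPC chromatin, against 0.646, 0.441 and 0.447 CPM in mNPC cytoplasm.

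In mCtx, 2 members were called higher in chromatin than in cytoplasm and 10 lower, where 50.6% of all tested genes were called, 26.2% higher and 24.4% lower. With library totals in place of TMM factors the split was 3 higher and 5 lower, and on log2(TPM + 1) over the 32 tested Pcdhb and non-clustered genes it was 3 higher and none lower, where 44.5% of genes were called. The lower calls thus depended on the measure and the scaling, the median of all genes being 0.00 with the counts, 0.24 with library totals and 0.59 on log2(TPM + 1); the cause was not tested. Pcdh15 (3.50 ± 0.19) and Pcdh9 (1.88 ± 0.14) were higher. The 10 lower members were Pcdhb2 (-3.05 ± 0.34), Pcdhb6 (-2.15 ± 0.28), Pcdhb8, Pcdhb18, Pcdhb4, Pcdhb5, Pcdh11x (-1.34 ± 0.19), Pcdh10 (-1.23 ± 0.13), Pcdh20 (-1.13 ± 0.30) and the Pcdha entry (-1.10 ± 0.18). Pcdhb2 had 0.410, 0.409 and 0.432 CPM in mCtx chromatin, against 3.41, 2.97 and 4.15 CPM in mCtx cytoplasm. In mNPC, the same gene had 1.86, 2.36 and 1.81 CPM in chromatin, against 0.861, 0.496 and 0.894 CPM in cytoplasm. In mESC, 12 of the 34 tested members were called higher in chromatin than in cytoplasm, near the share over all genes, and none lower. Over all genes 56% were called, 34.4% higher and 21.6% lower. Of the 12 members, the Pcdha entry, Pcdh9, Pcdh19, Pcdh15 and Pcdh1 had over 3 counts in both fractions. Pcdh1 had 7.94, 14.3 and 12.9 CPM in chromatin, against 2.43, 4.74 and 5.18 CPM in cytoplasm (1.49 ± 0.21). On log2(TPM + 1), Pcdh1 was the only Pcdhb or non-clustered gene called in stem cells, in chromatin and in nucleoplasm.

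**Figure D4:**
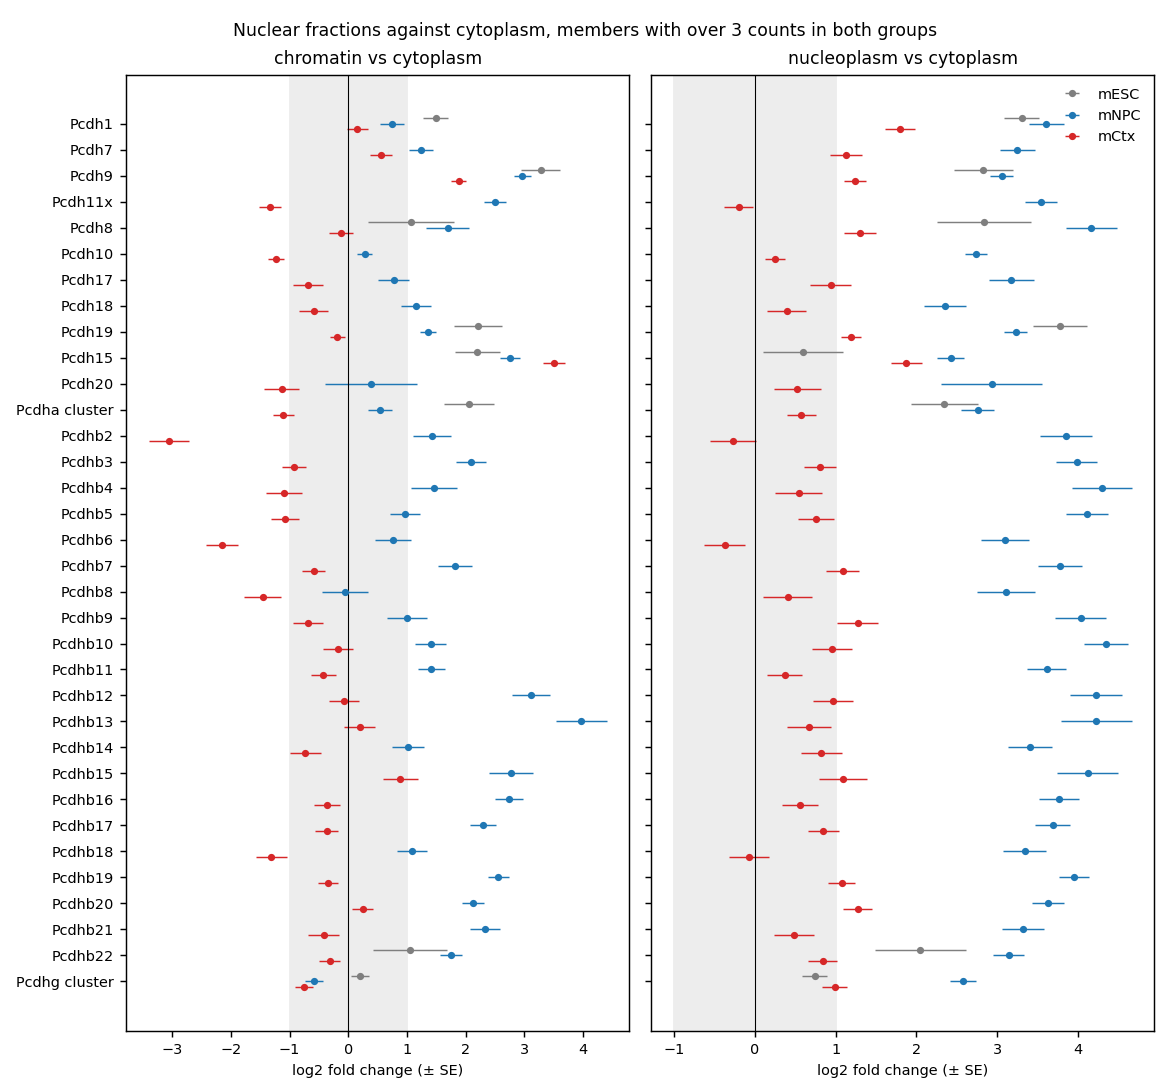
Log2 fold change (x axis, with SE bars) of chromatin over cytoplasm and of nucleoplasm over cytoplasm for the tested members (rows) in mESC, mNPC and mCtx, for members with over 3 counts in both groups; grey shading marks changes smaller than 1. The mNPC points lie to the right of the mCtx points for nearly every member, Pcdh15 in chromatin being an exception.

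The difference between cell types in the chromatin-to-cytoplasm change was tested as an interaction. For mCtx minus mNPC, 29 of the 34 tested members were called lower and none higher, where 19% of all tested genes were called, 11.4% lower and 7.68% higher. All 21 tested Pcdhb genes were among them, with a median of -2.41 and a range of -4.48 (Pcdhb2) to -1.40 (Pcdhb8), beside a median of -0.04 over all tested genes. So were 7 of the 11 tested non-clustered genes, with Pcdh11x at -3.84 ± 0.27, and the Pcdha entry at -1.65 ± 0.27. The Pcdhg entry was not called (-0.18 ± 0.22), and neither were Pcdh15, Pcdh20, Pcdh1 and Pcdh7. By TPM, 12 of the 19 alternate Pcdhg genes were called lower and none higher, where 22.2% of genes were called.

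The same test against stem cells was limited by few counts. For mNPC minus mESC, 1 member was called higher and 2 lower, where 28% of genes were called, 10.3% higher and 17.7% lower, and without mESC chromatin replicate 2, or without the mESC libraries numbered 1, a single call was left. On log2(TPM + 1) the same contrast called 22 members higher and none lower, 15 of 21 Pcdhb and 7 of 11 non-clustered genes. There 29% of the 24419 genes were called, 3249 of them higher. On this scale the Pcdhb median of chromatin over cytoplasm was 0.06 in mESC and 1.58 in mNPC. It was also 1.58 for the difference between the 2 cell types. For genes this low in stem cells, contrasts with mESC on this scale largely repeat the change of the other cell type. They cannot decide whether the cell types differ. By counts, the Pcdha entry had a difference of -1.51 for mNPC minus mESC and of -3.16 for mCtx minus mESC. For mCtx minus mESC, 12 members were called lower by counts and none higher, where 40.6% of genes were called, 15.7% higher and 24.9% lower. On log2(TPM + 1) there were 2 higher and 1 lower, where 38.2% of genes were called, 3878 of them higher. Of the 12 called lower by counts, Pcdh19 (-2.40), Pcdh9 (-1.40) and Pcdh1 (-1.34) were among those with over 3 counts in all 4 groups.

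The counted regions include introns, so gene length was set beside the fraction values. Pcdh15 spans 1547 kb, of which annotated exons are 1.53%, and Pcdh9 spans 873 kb, of which exons are 0.773%. These are the longest members of the table, and the only ones called higher in mCtx chromatin than in cytoplasm. By TPM, which is assigned to transcripts, Pcdh15 remained higher in mCtx chromatin, at 6.15, 5.62 and 5.53 TPM against 0.690, 0.440 and 0.750 TPM in cytoplasm (log2(TPM + 1) difference 2.06 ± 0.14). Pcdh9 did not, at 12.9, 11.1 and 11.7 TPM in chromatin against 12.7, 10.1 and 13.8 TPM in cytoplasm (-0.02 ± 0.16, adjusted p = 0.94). Pcdh11x, at 620 kb, was lower in mCtx chromatin by counts and had a log2(TPM + 1) difference of -0.69 ± 0.16. In mNPC, Pcdh15, Pcdh9 and Pcdh11x were called higher in chromatin by both measures. By TPM, 49.5% of the 24419 genes were called, 10023 of them higher. The chromatin-to-cytoplasm difference of Pcdh15 between mCtx and mNPC was 0.74 ± 0.24 by counts, not called, and -1.60 ± 0.19 by TPM, called lower, so its direction depended on the measure.

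**Figure D5:**
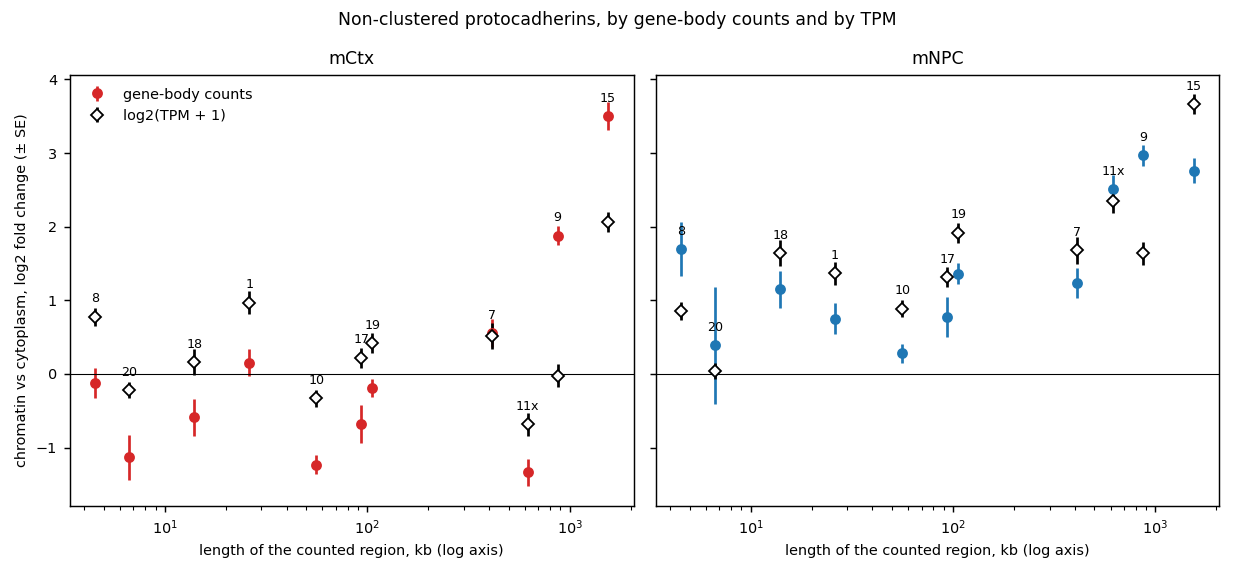
Log2 fold change of chromatin over cytoplasm (y axis, with SE bars) of the tested non-clustered protocadherins by the length of the counted region in kb (log axis), in mCtx and mNPC, from gene-body counts (filled circles) and from log2(TPM + 1) (open diamonds); numbers name the Pcdh genes. In mCtx, Pcdh9 is at 1.88 by counts and at -0.02 by TPM, whereas Pcdh15 is above 2 by both.

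General factors of genome architecture, methylation and silencing, some of which act on the clustered promoters, were followed as a list of 25. In cytoplasm, 1 was called higher and 18 lower in mCtx than in mESC, where 35.7% of all tested genes were called higher and 32.2% lower, with a median log2 fold change of -1.62 beside 0.06 over all tested genes. Between mCtx and mNPC cytoplasm, none was called higher and 8 were called lower, where 24.4% of all tested genes were called higher and 20% lower. Trim28, a corepressor, had 2275 ± 562 CPM in mESC cytoplasm, 325 ± 50.9 CPM in mNPC cytoplasm and 210 ± 30.0 CPM in mCtx cytoplasm, and Tet1, which oxidises methylcytosine, had 330 ± 24.3, 43.0 ± 4.42 and 21.8 ± 4.41 CPM (SD, n = 3 each). In chromatin, Trim28 had 171 ± 9.77 CPM in mNPC and 310 ± 19.4 CPM in mCtx, and in nucleoplasm 299 ± 27.7 and 448 ± 30.7 CPM. Its mean thus fell from mNPC to mCtx in cytoplasm only, whereas the mean of Tet1 fell in each fraction. Ctcf, which binds the clustered promoters, and Smchd1, which silences parts of the clusters, were 2 of the 18, at -1.44 and -2.58. The part of the listed factors in the protocadherin values was not tested.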

How the data were processed

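Polyadenylated RNA over 200 nt from 3 fractions of 3 mouse cell types was sequenced from stranded libraries as 100 bp read pairs, per the labels' protocols. The submitters' processing notes name STAR, featureCounts, kallisto 0.43.0 and mm10; the sources used here do not give their options, strand setting or annotation release. The authors deposited a table of whole-number read counts, in which the length given for each of the 37332 genes equals its full span, introns included; the 9 chromatin columns were analysed as counts too. The authors deposited TPM values in a second table of 53379 genes. Symbols came from GENCODE M21, which matched 35449 and 53274 identifiers.

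The test on counts was the quasi-likelihood test of edgeR 4.0.16, run in R 4.3.3 (TMM factors, filterByExpr, 18226 genes, all 27 libraries, 15 contrasts, Benjamini-Hochberg per contrast), and DESeq2 1.42.0 was an alternative. A call needed an adjusted p below 0.05 and a log2 fold change of at least 1. The deposited TPM values were tested on the log2 scale, as log2(TPM + 1), with limma 3.58.1 for 24419 genes with at least 1 TPM in 3 libraries. Where a group had 3 counts or fewer, a ratio with a 95% counting interval, or a bound against 3 counts, replaced the fitted fold change; these cover counting error only. Scripts were tested on simulated data.

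Members and lists were chosen with earlier results of these data known. Named were each non-clustered member, the 3 Pcdhb genes with the highest mean CPM and up to 2 per contrast and direction with the largest called change at a mean of at least 1 CPM, the outermost, innermost and C-type Pcdha and Pcdhg genes with the 3 highest alternate ones, and the 2 most highly counted genes of each list; further names were chosen after values were seen. Replicate numbers paired the stem-cell fractions, where same-numbered libraries deviated together in 9 of 9 pairs (correlations 0.310 to 0.716); a replicate block kept 12 calls in each mESC comparison of fractions. Genes overlapping a member had at most 135 counts over all libraries.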

Additional observations from a re-analysis of the deposited data

Results flagged for a closer look

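The chromatin-to-cytoplasm log2 change differed between mCtx and mNPC for 29 members by edgeR's interaction test. Given here are those that the naming rule covers and that have over 3 counts in each group; the called Pcdhb5, Pcdhb8, Pcdhb14, Pcdhb15, Pcdhb16, Pcdhb18 and Pcdhb22 are outside the rule. Among the non-clustered genes the difference (mCtx minus mNPC) was -3.84 for Pcdh11x, -1.82 for Pcdh8, -1.73 for Pcdh18, -1.55 for Pcdh19, -1.51 for Pcdh10, -1.46 for Pcdh17 and -1.09 for Pcdh9. The Pcdha entry had -1.65. In the Pcdhb cluster it was -4.48 for Pcdhb2, -3.78 for Pcdhb13, -3.19 for Pcdhb12, -3.01 for Pcdhb3, -2.92 for Pcdhb6, -2.90 for Pcdhb19, -2.76 for Pcdhb21, -2.67 for Pcdhb17, -2.55 for Pcdhb4, -2.41 for Pcdhb7, -1.88 for Pcdhb20, -1.84 for Pcdhb11, -1.69 for Pcdhb9 and -1.58 for Pcdhb10.

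Against stem cells, where 3 members were called for mNPC minus mESC and 12 for mCtx minus mESC, the same selection leaves few. The Pcdha entry had -1.51 for mNPC minus mESC and -3.16 for mCtx minus mESC. For mCtx minus mESC, Pcdh19 had -2.40, which became 0.30 on log2(TPM + 1), Pcdh9 had -1.40 and Pcdh1 had -1.34.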

How the results depend on the processing

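Of 328 called single values, 324 kept their call with DESeq2, 328 with RLE factors, 319 with library totals, 325 with a minimum of 1 CPM, 324 with no filter and 317 with the compared libraries alone. The TPM counts leave out the 2 cluster entries. Of 310 tested by TPM, 211 kept their call on log2(TPM + 1) and 270 on log2(TPM + 0.1). The number of members called in the mNPC minus mESC shift was 5 with library totals, 5 with no minimum fold change, 22 on log2(TPM + 1), with or without a filter, and 21 on log2(TPM + 0.1). With no minimum fold change it was 21 in mCtx chromatin against cytoplasm and 23 in mCtx nucleoplasm against cytoplasm. On log2(TPM + 1), with or without a filter, it was 3 and 6 in these, 1 in mESC chromatin against cytoplasm, 1 in mESC nucleoplasm against cytoplasm, 10 in mNPC against mESC cytoplasm, 17 in mCtx against mNPC cytoplasm and 3 in the mCtx minus mESC shift. On log2(TPM + 0.1) it was 7 and 5 in the mESC comparisons of fractions and 6 in mCtx chromatin against cytoplasm. The cause was not tested.

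Signs reversed on log2(TPM + 1), with or without a filter, for Pcdh9 in mESC nucleoplasm against cytoplasm (-0.0068) and in mCtx chromatin against cytoplasm (-0.0233, and -0.0244 on log2(TPM + 0.1)), and for the mNPC minus mESC shift of Pcdh11x (2.34, and 2.80 on log2(TPM + 0.1)). They also reversed for the mCtx minus mESC shifts of Pcdhb20 (0.96, and 0.45 on log2(TPM + 0.1)), Pcdhb7 (0.20), Pcdh19 (0.30) and Pcdh17 (0.11).

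Leaving out each library in turn gave 1 to 4 calls in the mNPC minus mESC shift, 27 to 29 for mCtx minus mNPC and 11 to 14 for mCtx minus mESC. It gave 21 to 26 in mNPC chromatin, 11 to 13 in mCtx chromatin, 8 to 15 in mCtx nucleoplasm, 10 to 12 in mESC chromatin and 9 to 14 in mESC nucleoplasm, each against cytoplasm, 27 to 29 in mCtx against mNPC cytoplasm and 18 to 19 in chromatin; the others did not move. Without the mESC libraries numbered 1 the mNPC minus mESC shift had 1 call. Outside stem cells the replicate numbers did not pair the libraries (4 of 9 mNPC and 5 of 9 mCtx correlations over 0.1). The replicate block gave 24 calls in mNPC chromatin against cytoplasm and 4 in the mNPC minus mESC shift. Library totals moved the median of all genes by 0.51 in mESC chromatin, 0.32 in mNPC chromatin, 0.24 in mCtx chromatin, 0.22 in mESC nucleoplasm and -0.27 in mNPC nucleoplasm, each against cytoplasm. A fit on single segments of the clusters was not run, since each of the 2 clusters is a single entry in the counts. Low counts limit the stem-cell values, except those of the Pcdhg entry and Pcdh1.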
